A study of Danio rerio with 2 samples.

Results

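The genes described here serve protein folding and quality control in the endoplasmic reticulum (ER), together with the unfolded protein response (UPR) that adjusts this machinery. They were chosen by symbol: 40 symbols were listed in 4 arms, and a gene entered when its normalized read counts summed to 10 or more over both libraries. All 40 symbols had 1 gene each in a table of 22849 genes, and all 40 passed, the smallest sum being 62 for ero1a. The arms hold 8 sensor and signalling genes, 10 lumenal chaperone genes, 9 disulfide isomerase and oxidase genes and 13 genes of ER-associated degradation.

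The animals were wild-type zebrafish of strain AB, used as whole larvae at 6 days post fertilization (dpf). One group was exposed from day 3 onwards to 1 µM benzo[a]pyrene (BaP), a polycyclic aromatic hydrocarbon that activates the aryl hydrocarbon receptor, and the other over the same days in the solvent dimethyl sulfoxide (DMSO, 0.1%). Each treatment has 1 stranded mRNA library, made from RNA of 4 pooled biological replicates, so no difference below has a replicate check and no p-value is given. Bone toxicity of BaP is the subject named in the study's title. The labels give no DMSO share for the BaP larvae. The values are read counts that the authors normalized and rounded. By an estimate from the spacing of the low values, they correspond to about 21997000 reads in the BaP library and 19806000 in the DMSO library. Below, reads given for a gene or list are normalized values unless called approximate. The cytochrome P450 gene cyp1a, a target of the aryl hydrocarbon receptor, had 17859 normalized reads in BaP larvae and 650 in DMSO larvae.

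Secreted and membrane proteins enter the ER unfolded, and chaperones, lectins and thiol oxidoreductases fold them there. Proteins that fail to fold are moved back to the cytosol, ubiquitinated and degraded. When unfolded proteins accumulate, the transmembrane sensors Ire1, Perk and Atf6 signal to the nucleus and to the ribosome, which lowers the protein load and raises the transcripts of chaperones and degradation factors. Cells with a heavy secretory load, such as the acinar cells of the pancreas, hepatocytes and matrix-producing cells of cartilage and bone, depend on this system.

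A gene is called higher or lower here where its BaP value was at least 2 times its DMSO value or at most 0.5 times. Of the 40 genes, 4 were higher in BaP larvae and 1 was lower. All 4 higher genes were lumenal chaperone or chaperone-like genes, and the lower one was the isomerase gene pdia2. Among all 21764 genes compared, 3.75% were higher and 4.36% lower by the same rule. The median log2 ratio of BaP over DMSO was 0.29 over the 40 genes and -0.06 over all compared genes. Relaxed to 1.5-fold, the rule took 11 of the 40 genes as higher and 1 as lower, against 9.12% and 11.5% of all genes.

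A 95% counting interval of each ratio was computed from approximate reads. It covers counting error only, and not the variation between larvae or between libraries. This interval lay wholly above 1 for 23 of the 40 genes (57.5%) and wholly below 1 for 7 (17.5%), while it held 1 for 10. Of all compared genes, 18.1% had an interval above 1 and 26.2% one below, and for 12127 of the 21764 it held 1. Intervals narrow as reads rise, and these shares of all genes were not matched for read depth. The median value over all genes was 143 in each library. A surplus of intervals without 1 can thus come from depth alone. With both libraries scaled to the same total, 30 of the 40 genes had an interval above 1 and 3 below, against 31.4% and 13.8% of all genes. Under the median of ratios and under the trimmed mean of M values, 24 lay above and 5 below. Of all genes, about 22% lay above and 21% below under either. These interval counts under other scalings were added after the data had been seen. The ratios of the 40 genes ran from a log2 value of -1.32 to 1.27, so none differed by 4-fold.

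**Figure D1:**
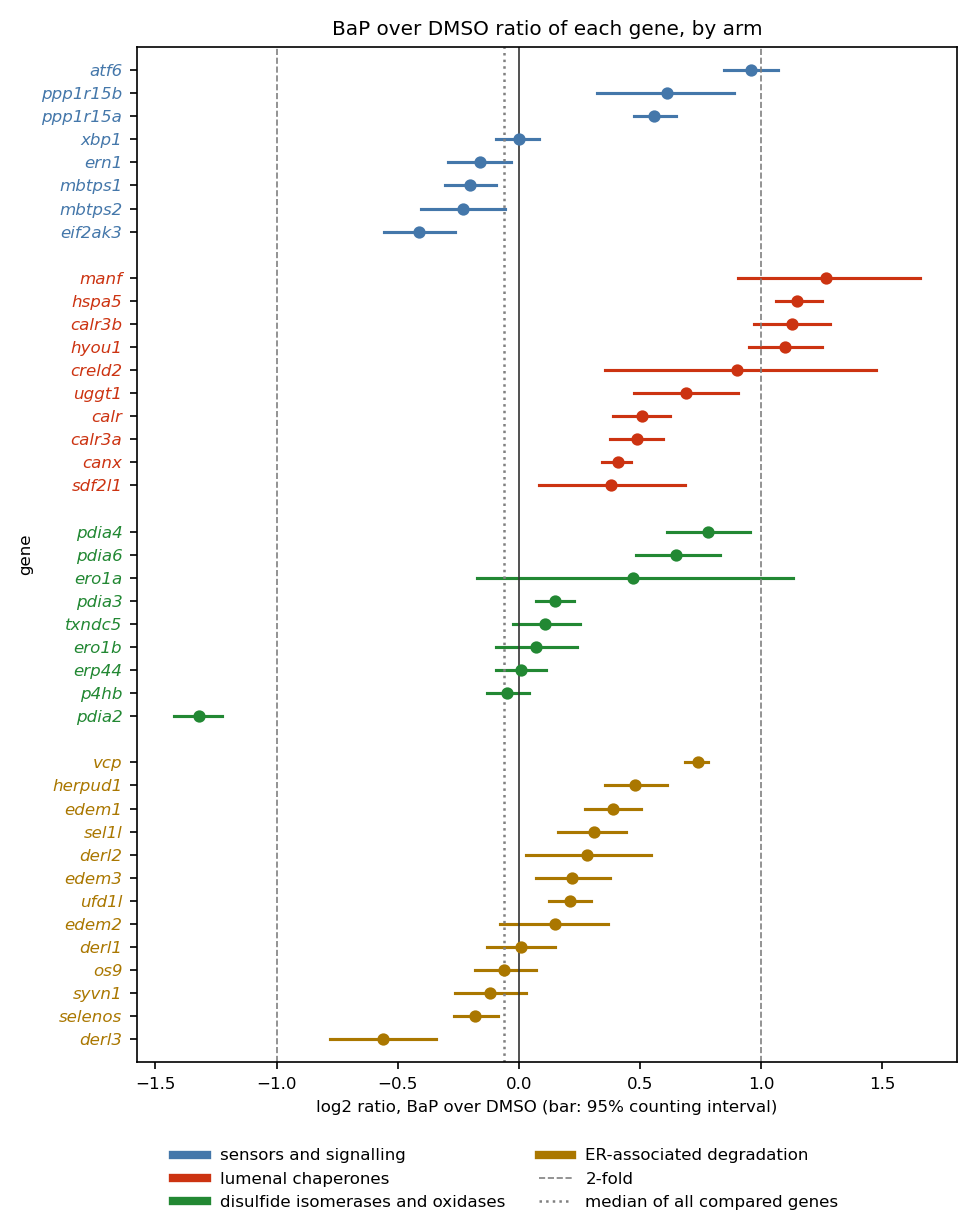
The log2 ratio of BaP over DMSO is plotted for each of the 40 genes, grouped by arm, with the 95% counting interval as a bar. All 10 lumenal chaperone genes lie to the right of 0, from 0.38 to 1.27. Sensors, isomerases and degradation genes lie on both sides of 0, and pdia2 lies farthest left at -1.32.

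Lumenal chaperones had the largest median ratio among the arms. All 10 had a counting interval above 1, and 4 were higher by at least 2-fold. Among all compared genes, 3.75% were higher and 18.1% had an interval above 1, the latter share not matched for read depth. Their median log2 ratio was 0.80, a fold of 1.74, and their summed normalized reads were 9241 in BaP larvae and 5754 in DMSO larvae. The other arms had medians of -0.08 (sensors, 0.08 with both libraries scaled to the same total), 0.11 (isomerases) and 0.21 (degradation). These differences between arms were not tested.

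The gene hspa5 encodes BiP, the main Hsp70 of the ER, which binds unfolded chains and keeps the sensors inactive. It had 1993 normalized reads in the BaP library and 895 in the DMSO library, a 2.23-fold difference (95% counting interval 2.09 to 2.38). The gene lies on chromosome 5 between 2713779 and 2721686 on the minus strand (ENSDARG00000103846, coordinates of the deposited table, for which the submitters' notes name GRCz11). A larger ratio was found for 2.63% of all compared genes. The nucleotide exchange factor of BiP, encoded by hyou1 (ENSDARG00000013670, chromosome 10, 29770120 to 29791466), had 740 reads in BaP larvae and 346 in DMSO larvae. Its fold of 2.14 (1.93 to 2.38) had an interval that overlapped that of hspa5.

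The small secreted protein Manf resides in the ER, binds BiP and is induced by ER stress. Its gene manf (ENSDARG00000063177, chromosome 22, 32228882 to 32235551) had 145 normalized reads in BaP larvae and 60 in DMSO larvae. This ratio of 2.42 was the highest of the 40 genes, with a wide interval (1.87 to 3.15) because it rests on 267 and 88 approximate reads. For sdf2l1, whose product works in a complex with BiP and its J-protein partner, the counts were 141 in BaP larvae and 108 in DMSO larvae (1.31-fold, 1.06 to 1.61). The stress-induced gene creld2 was the least abundant chaperone gene by count, with 58 and 31 normalized reads in BaP and DMSO larvae. Its ratio of 1.87 missed the 2-fold rule, and its interval ran from 1.28 to 2.78.

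The lectin chaperones hold glycoproteins in a folding cycle, and 3 calreticulin genes were measured beside calnexin. The copy calr3b (ENSDARG00000102808, chromosome 2, 55783896 to 55797318) had 689 normalized reads in BaP larvae and 315 in DMSO larvae, a fold of 2.19 (1.96 to 2.44). Its relative calr3a had 1049 and 748 in BaP and DMSO larvae (1.40-fold, 1.30 to 1.51). The third gene, calr, had 899 reads in BaP larvae and 633 in DMSO larvae (1.42-fold, 1.31 to 1.54). The interval of calr3b thus lay above those of both other calreticulin genes, and its fold was 1.56 times that of calr3a and 1.54 times that of calr. The sources used here do not state how reads shared between such related copies were assigned, so the split between the copies is uncertain. Calnexin, the membrane-bound lectin chaperone encoded by canx, had 3208 and 2420 reads in BaP and DMSO larvae (1.33-fold). The gene uggt1, for the glucosyltransferase that returns misfolded glycoproteins to the cycle, had 319 reads in BaP larvae and 198 in DMSO larvae (1.61-fold, 1.39 to 1.87).

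**Figure D2:**
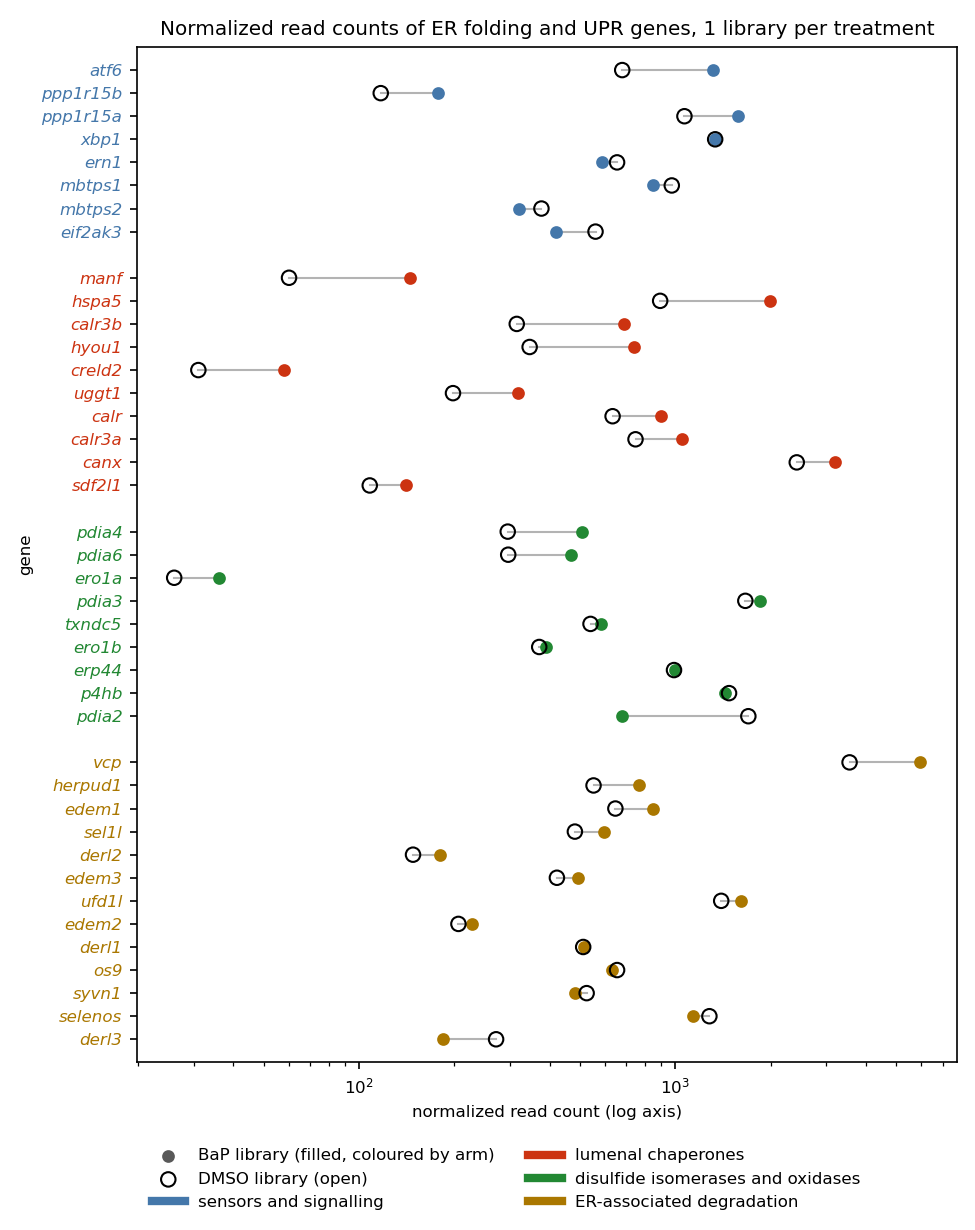
Normalized read counts of the 40 genes are plotted on a log axis, with filled points for the BaP library, open circles for the DMSO library and a line joining the 2 values of a gene. The filled point lies right of the open circle in all 10 lumenal chaperone genes, while xbp1 (1332 and 1336) and erp44 (995 and 990) nearly coincide.

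No sensor or signalling gene reached 2-fold under the authors' scaling, against 3.75% higher and 4.36% lower among all compared genes. The ratios of the 3 stress sensors lay on both sides of 1. The sensor Atf6 is a membrane-bound transcription factor that moves to the Golgi under stress, where it is cut by 2 proteases and released. Its gene atf6 (ENSDARG00000012656, chromosome 20, 33809434 to 33909872) had 1319 normalized reads in BaP larvae and 679 in DMSO larvae. With a ratio of 1.94 (1.80 to 2.10) it lay just below the 2-fold rule, whereas hyou1 at 2.14 lay just above it. It passed the rule in 4 of 6 alternatives that changed the scaling, the trend or the pseudocount. A larger ratio than that of atf6 was found for 3.95% of all compared genes.

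The other sensors had ratios below 1. For ern1, which encodes the kinase and endonuclease Ire1, there were 584 reads in BaP larvae and 654 in DMSO larvae (ratio 0.893, 0.816 to 0.977). The Perk kinase gene eif2ak3 had 420 and 559 reads in BaP and DMSO larvae, a ratio of 0.751 (0.679 to 0.832). Both intervals lay apart from that of atf6, and the log2 ratio of ern1 was 0.00 when both libraries were scaled to the same total. The interval of ern1 held 1 under each of the other scalings, while that of eif2ak3 stayed below 1. Ire1 acts by removing a short intron from the xbp1 transcript, which then encodes an active transcription factor. The whole xbp1 gene had 1332 reads in BaP larvae and 1336 in DMSO larvae (ratio 0.997, 0.938 to 1.06). A count per gene does not separate the spliced from the unspliced form, so Ire1 activity was not measured here, nor was phosphorylation of the Perk substrate or cleavage of Atf6.

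The proteases that release Atf6 had 849 and 974 reads in BaP and DMSO larvae for mbtps1 and 321 and 377 for mbtps2. Their ratios were 0.872 and 0.851, with intervals that lay below 1 as deposited and held 1 under the same total. Under the median of ratios and the trimmed mean of M values, the interval of mbtps2 also held 1, while that of mbtps1 stayed below. The phosphatase subunits that restore translation after Perk signalling lay on the other side of 1. The stress-inducible subunit gene ppp1r15a had 1579 reads in BaP larvae and 1068 in DMSO larvae (1.48-fold, 1.39 to 1.57). Its constitutive relative ppp1r15b had 178 and 117 in BaP and DMSO larvae (1.52-fold, 1.25 to 1.85), and the 2 intervals overlapped.

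Disulfide isomerases and oxidases had log2 ratios from -1.32 for pdia2 to 0.78, and the other 8 lay between -0.05 and 0.78. These enzymes make, break and rearrange disulfide bonds in newly made proteins. Of the 9 genes, 0 were higher by 2-fold and 1 was lower, against 3.75% and 4.36% of all compared genes. The intervals of 3 lay above 1, of 1 below it and of 5 across it. For all compared genes, 18.1% lay above and 26.2% below, not matched for read depth. The highest ratio belonged to pdia4, encoding ERp72, with 508 reads in BaP larvae and 295 in DMSO larvae (1.72-fold, 1.53 to 1.94). Next came pdia6, whose product P5 associates with BiP, with 466 and 296 in BaP and DMSO larvae (1.57-fold, 1.40 to 1.78).

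The more general isomerase genes were close to equality. For pdia3, whose product works with calreticulin and calnexin on glycoproteins, there were 1850 reads in BaP larvae and 1664 in DMSO larvae (1.11-fold, 1.05 to 1.17). The founding family member p4hb, which also serves as a subunit of collagen prolyl hydroxylase, had 1431 and 1478 in BaP and DMSO larvae (ratio 0.968, 0.914 to 1.03). The isomerase gene txndc5 had 583 reads in BaP larvae and 539 in DMSO larvae. Its interval held 1, as did those of erp44 (995 and 990), for a retention factor of the early secretory pathway, and of both oxidase genes. The oxidase Ero1 supplies the isomerases with oxidizing equivalents. The copy ero1b had 390 and 371 reads in BaP and DMSO larvae, while ero1a had 36 and 26, with a wide interval (0.888 to 2.19).

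The gene pdia2 (ENSDARG00000018263, chromosome 1, 9954489 to 9966195) encodes an isomerase that in mammals is made mainly by the exocrine pancreas. It had 680 normalized reads in the BaP library and 1701 in the DMSO library, 2.50-fold lower (2.33 to 2.68). A smaller ratio was found for 1.83% of all compared genes. Markers of the exocrine pancreas also had ratios below 1. Of 27 measured marker genes 18 (66.7%) were lower and 0 higher by 2-fold, against 4.36% and 3.75% of all compared genes. Their median log2 ratio was -1.22. After correction for a dependence of ratios on expression level, 11 were lower. The carboxypeptidase gene cpb1 had 5179 reads in BaP larvae and 17707 in DMSO larvae, and the trypsin-family gene prss59.1 had 6040 and 21291. The whole list's summed normalized reads were 161184 in BaP larvae and 395378 in DMSO larvae, 2.45-fold lower beside 2.50-fold for pdia2. As a ratio of sums, BaP over DMSO, that is 0.408, and falls of similar size were not limited to the pancreas. Other marker lists had ratios of 0.365 (skin), 0.443 (cartilage and bone matrix), 0.584 (liver) and 1.16 (macrophages and neutrophils). No marker of the pancreas list was at 0 in either library. In whole larvae, fewer cells of a type and less RNA per cell cannot be told apart, and the part of the pancreas in the pdia2 value was not tested.

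Genes of ER-associated degradation had a smaller median ratio than the lumenal chaperones, and 0 of 13 reached 2-fold in either direction. By the same rule, 3.75% of all compared genes were higher and 4.36% lower. The median log2 ratio of the 13 genes was 0.21, with 7 intervals above 1, 2 below and 4 across it. For all compared genes, 18.1% lay above and 26.2% below, not matched for read depth. The gene vcp, for the p97 ATPase that pulls proteins out of the membrane and serves many other pathways, had 5925 reads in BaP larvae and 3555 in DMSO larvae (1.67-fold, 1.61 to 1.72). Its cofactor gene ufd1l had 1615 and 1396 in BaP and DMSO larvae (1.16-fold, 1.09 to 1.23). The gene selenos, for a selenoprotein that recruits p97 to the ER membrane, had 1133 reads in BaP larvae and 1281 in DMSO larvae (ratio 0.884, with an interval below 1 as deposited that held 1 under the same total).

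The ligase complex around Hrd1 was split between values above and close to 1. The scaffold gene herpud1, a known target of the stress response, had 770 reads in BaP larvae and 551 in DMSO larvae (1.40-fold, 1.28 to 1.53). The adaptor gene sel1l had 595 and 481 in BaP and DMSO larvae (1.24-fold, 1.12 to 1.36). The ligase gene itself, syvn1, had 483 reads in BaP larvae and 524 in DMSO larvae, and the lectin gene os9, whose product delivers glycoproteins to the ligase, had 629 and 654. Both of these intervals held 1.

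Edem proteins trim mannose from glycoproteins and so mark them for degradation. The counts for edem1 were 847 in BaP larvae and 646 in DMSO larvae (1.31-fold, 1.21 to 1.42). For edem3 they were 493 and 422 in BaP and DMSO larvae (1.17-fold, 1.05 to 1.30), and for edem2 228 and 206, with an interval that held 1. The 3 intervals overlapped. Derlins form part of the channel through which proteins leave the ER, and their genes did not share a direction. In BaP and DMSO larvae derl1 had 515 and 511 reads (1.01-fold, 0.913 to 1.11), and derl2 had 180 and 148 (1.22-fold, 1.02 to 1.46). The third gene, derl3, had 184 reads in BaP larvae and 271 in DMSO larvae, a ratio of 0.679 (0.583 to 0.790) whose interval lay below those of derl1 and derl2. After pdia2 it was the gene farthest below 1.

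**Figure D3:**
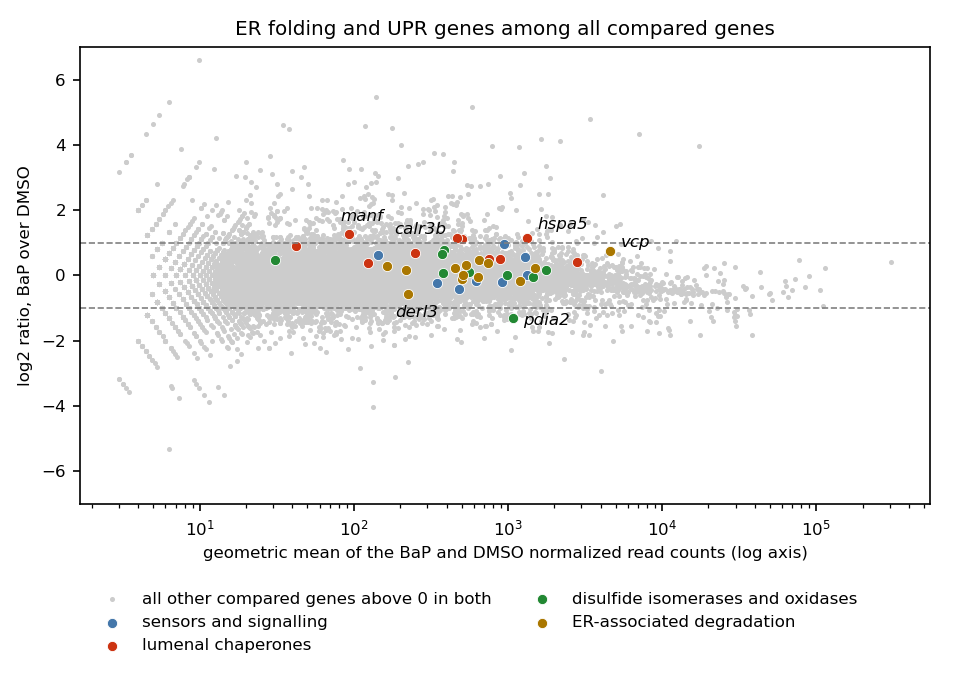
Each compared gene with reads in both libraries is plotted by the geometric mean of its 2 normalized read counts and by its log2 ratio of BaP over DMSO, with the 40 genes in colour and dashed lines at 2-fold. The lumenal chaperones (red) lie above 0, and 4 of them pass the upper line, while pdia2 alone passes the lower one.

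Other genes of the same pathway were listed by function, 215 of them in 10 lists without the 40 genes above. Of these, 8 were higher and 1 lower by 2-fold, or 3.72% and 0.465%, against 3.75% and 4.36% of all compared genes. The share of higher genes at 2-fold was thus that of the background. The median log2 ratio of the 215 genes was 0.08, against -0.06 over all compared genes. Their counting intervals lay above 1 for 77 (35.8%) and below 1 for 47 (21.9%), against 18.1% and 26.2% of all genes. These shares of all genes were not matched for read depth. The count of higher genes was 14 with both libraries scaled to the same total. That scaling raised the ratio of every gene, and the share of all genes past 2-fold under it is not given here. Among the 15 genes of J-proteins and exchange factors, which drive the ATPase cycle of BiP, 0 passed 2-fold and 7 intervals lay above 1 with none below (median 0.28). The gene dnajb11, for the J-protein that works with BiP and Sdf2l1, was the nearest to the rule with 432 reads in BaP larvae and 219 in DMSO larvae (1.97-fold). It passed 2-fold under other scalings. The J-protein gene dnajc10 had 302 and 183 in BaP and DMSO larvae, and the exchange factor gene sil1 had 168 and 109. The genes of the list with most reads were sec63, a partner of the translocon, with 834 and 687 in BaP and DMSO larvae, and dnajc1, with 668 and 658.

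By median, the machinery of entry into the ER and of glycan attachment lay near equality. None of the 24 genes of the translocon and signal peptide processing passed 2-fold (median 0.07), against 3.75% higher and 4.36% lower among all compared genes. The intervals of 9 (37.5%) lay below 1 and those of 3 (12.5%) above. For all compared genes, 26.2% lay below and 18.1% above. These background shares, not matched for read depth, also apply to the lists that follow. The channel gene sec61a1 had 4287 reads in BaP larvae and 5710 in DMSO larvae, and srp54, a subunit of the signal recognition particle, had 1326 and 1114. None of the 31 genes of N-glycosylation passed either (median 0.10). However, 1 did under the same total, the trimmed mean of M values and the trend correction. The intervals of 11 lay above 1 and that of 1 below. The oligosaccharyltransferase genes rpn2 and stt3a had 1375 and 1512, and 886 and 880, in BaP and DMSO larvae. The 8 peptidyl-prolyl isomerase genes, which serve collagen folding among other tasks, had a median of -0.25 with 0 past 2-fold. Of their intervals, 4 lay below 1 and 1 above. The gene ppib had 2121 reads in BaP larvae and 2695 in DMSO larvae, beside 307 and 297 for fkbp2. Of 27 further degradation genes (median 0.05) and 26 genes of ER export and retrieval (median 0.07), 0 passed in either direction. Intervals lay above 1 for 8 and below it for 5 of the degradation genes, and for 11 and 6 of the export genes. The ubiquitin ligase gene ube4b had 1199 and 1176 reads in BaP and DMSO larvae, and march6, for a ligase of the ER membrane, had 1138 and 1099. In the export list, sec24a of the COPII coat had 1354 reads in BaP larvae and 1885 in DMSO larvae, and mia3, needed for collagen export, had 1263 and 1318. The 8 genes of other membrane-bound transcription factors had a median of -0.02 (0.15 under the same total) and likewise 0 past 2-fold. Of these, nfe2l1a had 965 and 720 in BaP and DMSO larvae, and srebf1 had 834 and 760.

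Among 19 other thiol oxidoreductase genes, 1 (5.26%) was higher, against 3.75% of all compared genes. This was agr2, which encodes an isomerase of mucus-secreting cells and had 315 reads in BaP larvae and 141 in DMSO larvae (2.23-fold, 1.89 to 2.64). The median of the list was 0.07, and prdx4, for the peroxiredoxin of the ER, had 255 and 502 in BaP and DMSO larvae, a ratio of 0.508. Of 27 genes of ER calcium and apoptosis control, 2 (7.41%) were higher, against the same 3.75%. They were casp3b, a caspase gene (619 reads in BaP larvae and 207 in DMSO larvae), and 1 of 2 gene models named atp2a2a. That model (ENSDARG00000005122), for the calcium pump that fills the ER, had 1389 and 645. The second model of that name (ENSDARG00000029439) had 1375 and 1812 in BaP and DMSO larvae, so the symbol as a whole has no single direction.

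Downstream of Perk, the factors Atf4 and Chop act on amino acid supply, redox balance and cell death. The list for this branch held the most genes past 2-fold among the 10 lists. Of 30 genes 5 (16.7%) were higher and 1 (3.33%) lower, against 3.75% and 4.36% of all compared genes, and the median was 0.26. With both libraries scaled to the same total 8 were higher, a count that has no background share beside it here. Other kinases than Perk feed the same branch. The higher genes were slc7a11, a cystine transporter gene (418 reads in BaP larvae and 98 in DMSO larvae), mthfd2 of mitochondrial folate metabolism (169 and 41), the transcription factor genes atf3 (761 and 198) and cebpb (1621 and 795), and sesn2 (118 and 56). The lower gene was slc3a2a, a copy of the gene for the heavy chain of amino acid transporters, with 1257 and 3083. Transcripts of the regulators themselves lay within 2-fold, with 1235 reads in BaP larvae and 1145 in DMSO larvae for ddit3, which encodes Chop. The copies of the Atf4 gene had 2954 and 3304 reads (atf4a) and 4042 and 3093 (atf4b). Protein levels of Atf4 and Chop were not measured.

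**Figure D4:**
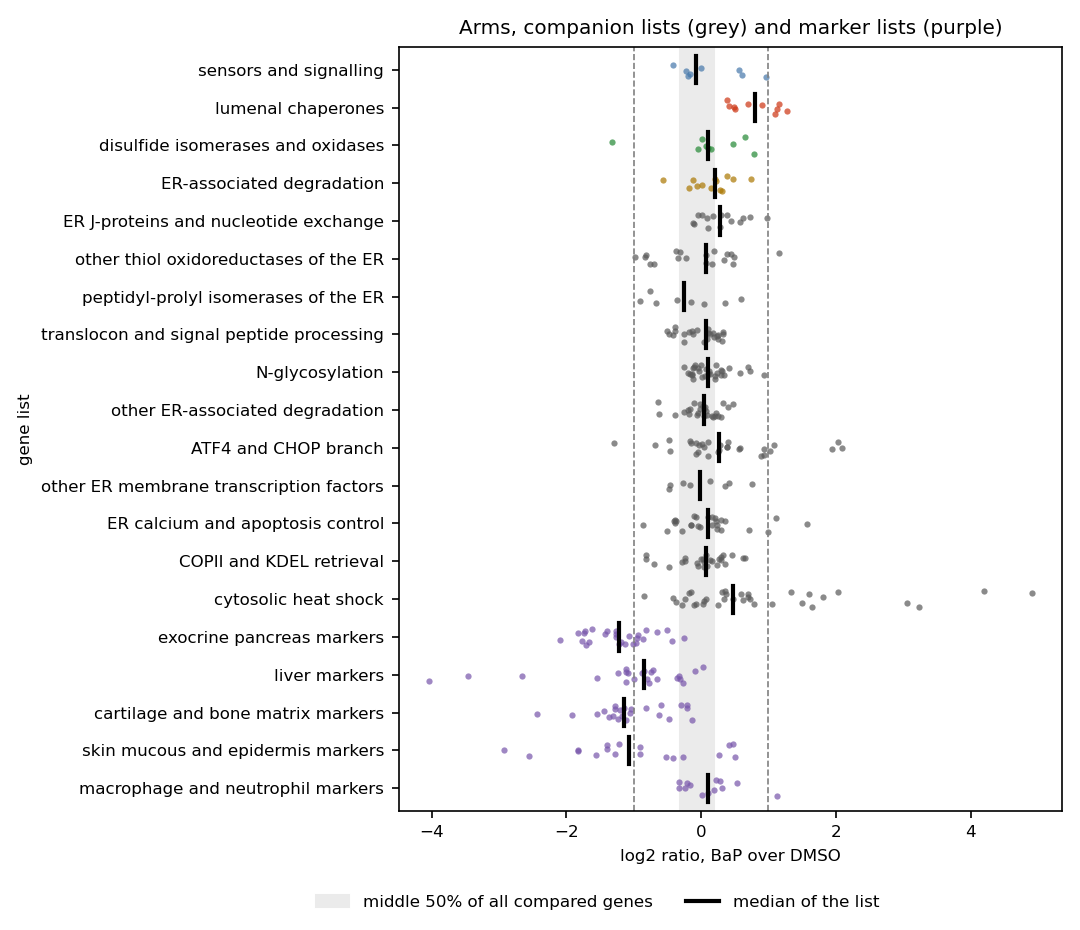
Log2 ratios of BaP over DMSO are plotted as points for the genes of each list, with the median as a black bar, the middle 50% of all compared genes shaded (-0.31 to 0.19) and dashed lines at 2-fold. The medians of the lumenal chaperones (0.80), heat shock (0.47), J-proteins (0.28), Atf4 and Chop branch (0.26) and degradation arm (0.21) lie right of the shaded band. The pancreas, liver, cartilage and skin marker medians lie left of it.

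Several chaperone genes outside the ER had larger folds than any of the 40. Of 35 genes on a heat shock list 11 (31.4%) were higher and 0 lower, against 3.75% and 4.36% of all compared genes. Of the 10 lumenal chaperones 4 were higher and 0 lower. The medians were 0.47 for the heat shock list and 0.80 for the lumenal chaperones. With a sum of at least 100 required, 7 heat shock genes were higher. The 11 include genes of mitochondrial chaperones, which are not cytosolic: hspd1 had 1829 reads in BaP larvae and 446 in DMSO larvae, hspe1 had 779 and 310, and hspa9 had 5813 and 1860. The cytosolic genes hspa4a (686 and 242), hspb11 (963 and 274), hsp90aa1.1 (875 and 288) and hsp90aa1.2 (1053 and 509) also passed. The remaining 4, the inducible genes hsp70l, hsp70.1, hsp70.2 and hsp70.3, had 30 to 75 reads in BaP larvae and 1 to 8 in DMSO larvae, and how reads were split among these related copies is uncertain. The ER-resident collagen chaperone genes on that list lay on the other side of 1, with 84 reads in BaP larvae and 150 in DMSO larvae for serpinh1a and 116 and 150 for serpinh1b. The constitutive cytosolic gene hspa8 had 70108 and 75549 in BaP and DMSO larvae, a ratio of 0.928 beside 2.23 for its ER relative hspa5.

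Most markers of secretory tissues, and of skin mucous cells and epidermis, had ratios below 1 in the same libraries. Besides the pancreas, 9 of 23 liver markers (39.1%) were lower, against 4.36% of all compared genes (median -0.85, 5 lower under the same total). Their summed reads were 94479 in BaP larvae and 161654 in DMSO larvae. Of 23 markers of cartilage and bone matrix 15 were lower (median -1.14, sums of 32661 and 73771 in BaP and DMSO larvae), as were 9 of 18 skin markers (median -1.07, sums of 84271 and 230884). None of these 3 lists had a gene higher by 2-fold. The intervals of 4 skin markers lay above 1, among them the claudin gene cldni with 2343 reads in BaP larvae and 1653 in DMSO larvae, and 1 liver marker had a ratio above 1. Of 13 macrophage and neutrophil markers 1 (7.69%) was higher, against 3.75% of all compared genes, and 0 were lower (median 0.10, sums of 3232 and 2780). No marker of these lists was at 0 in either library. The part of changed tissue makeup in the chaperone values was not tested.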

How the data were processed

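RNA of whole larvae was measured in 2 libraries, 1 for BaP and 1 for DMSO. The submitters' processing notes list, without saying what each did, Trimmomatic (0.38), STAR (2.6.1d) and featureCounts (1.6.3). They also list GRCz11 and danRer11 as builds. Per the labels' protocols, 200 ng of RNA pooled from 4 biological replicates entered each library. The deposited values are a score, a read count that the authors scaled by a method not given in the sources used here and rounded. How reads of several genes were treated is not given either. The members and gene lists were chosen with earlier results of these data known.

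Genes with a sum of at least 10 were compared by the ratio of the deposited values, and a gene was higher or lower at a ratio of at least 2 or at most 0.5. A 0 was set to 3 reads in ratios. Low values recur as whole reads times a constant would after rounding. The constant, found by likelihood from values up to 300, was 0.544 (BaP) and 0.679 (DMSO), ahead of the next candidate by 204 (BaP) and 147 (DMSO) units of log likelihood. Values divided by it are approximate reads. Clopper-Pearson intervals (95%) on them, conditional on the sum of both libraries, were widened for rounding and scaled back to normalized reads. Reads carry no molecular identifiers, so intervals and the set 3 reads cover counting error only and may be too narrow. The steps were tested on simulated data.

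Of the members all were named. Of each companion list the genes past 2-fold were named, or the 2 with the highest sum where there was none, and of marker lists at most 4. Genes within 2-fold on lists that had others past it, and dnajb11, dnajc10, sil1, serpinh1a, serpinh1b, hspa8 and cldni, were named after their values had been seen. Companion lists exclude the members. 1 listed symbol, txndc15, was left out because the name table pairs it with a gene that the deposited table names irf1b. Alternatives were other scalings, a trend correction (lowess, span 0.3), pseudocounts of 1 and 5, other filters and folds. The planned search of promoters and proteins for motifs was not run, since no sequences were used here. Tables and intervals were made in Python 3.11.15 with scipy 1.17.1, pandas 2.3.3 and numpy 2.4.6. Figures used matplotlib 3.10.9, and statsmodels 0.14.6 gave the trend.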

Additional observations from a re-analysis of the deposited data

How the results depend on the processing

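Of the 40 genes, 4 were higher and 1 lower under pseudocounts of 1 and 5, without a filter, with a sum of at least 100 and with the added demand of a counting interval without 1. The count of higher genes was 5 under the median of ratios, the trimmed mean of M values and with the trend on expression removed, and 6 with both libraries scaled to the same total. That last scaling moved every log2 ratio by 0.17 and the median of the 40 genes to 0.46, and atf6 and creld2 then passed 2-fold. With it, 3 of the 40 genes had an interval below 1, against 7. At 1.5-fold 11 genes were higher, and at 4-fold 0 were higher and 0 lower. The pathway genes outside the 40 had 14 higher under the same total and 13 under the trimmed mean of M values, against 8. Each of the other scalings raised the ratios of all genes alike. The share of all genes past 2-fold under them is not given here, so these counts have no background beside them. The signs of ern1, xbp1, p4hb, syvn1 and os9 changed under at least 1 alternative, and 35 genes kept theirs. Of the pancreas markers, 11 were lower with the trend removed, against 18. Taking the deposited values as reads changed, for 2 genes, ern1 and derl2, whether the interval held 1. Elsewhere, 472 of 504 values for arms and lists were labelled as the same and 32 as moved. A count was the same when it changed by no more than 1.5 times, which includes counts that stayed at 0. A median was the same when it stayed between the median lower and upper ends of the counting intervals of its single genes. Those ends do not measure the counting error of a list median. No replicate could be left out, and variation between larvae was not measured. No paired analysis was possible because each treatment has 1 library.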

Other observations

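The deposited annotation places 32 of the 40 genes in the pathway of protein processing in the endoplasmic reticulum. Another 138 compared genes carry the same term, of which 6 were higher by 2-fold and 0 lower. Only the 40 genes were taken out of this set, so it shares genes with the lists above. The share of 4.35% higher is near the 3.75% of all compared genes, and the 138 genes have a median log2 ratio of 0.10. Of these 6, 5 are cytosolic chaperone genes of the Hsp70 and Hsp90 families, and all 5 were already counted in the heat shock list. Among them, hsp70.1 had 30 reads in BaP larvae and 1 in DMSO larvae, hsp70.3 had 50 and 6, and hsp70l had 75 and 8. The counts in BaP and DMSO larvae were 875 and 288 for hsp90aa1.1 and 1053 and 509 for hsp90aa1.2. How reads were split among the related hsp70 copies is uncertain, and with a sum of at least 100 required, 3 of the term's genes were higher. The sixth, si:ch211-199o1.2, had 127 and 33. By counting interval, 55 of the 138 genes (39.9%) lay above 1 and 28 (20.3%) below. Of all compared genes, 18.1% lay above and 26.2% below, shares that were not matched for read depth. The term was looked up after the deposited table had been seen.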
